A study of Mus musculus with 10 samples.

Results

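The genes described here encode the chromatin-modifying enzymes and bromodomain readers of the mouse, taken as every known mRNA whose gene symbol begins with Kdm, Kmt, Setd, Prmt, Hdac, Sirt, Kat, Dnmt, Tet or Brd. They are 77 genes, with 111 transcripts, of the 16082 genes of known mRNAs and the 69572 genes of all kinds in the tables. By family there were 15 Kdm, 5 Kmt, 11 Setd, 7 Prmt, 10 Hdac, 7 Sirt, 7 Kat, 4 Dnmt and 3 Tet genes, and 8 Brd genes with Brdt among them. Ribosomal RNA-depleted libraries of C57BL/6 mice aged 3 to 5 months were sequenced from sperm and from testes. Control mice received saline, and cadmium mice received CdCl2 at 3 mg/kg once into the abdomen, and all were killed at day 35. Sperm was represented by 4 control pools and 2 samples after cadmium, and testes by 2 samples of each kind. Control sperm pool 1 was kept out of the main comparisons here. Each sperm pool joined several mice and sperm had been washed with a lysis buffer for somatic cells, while testes samples held the whole tissue with all its germ and somatic cells.

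Chromatin enzymes write, erase and read chemical marks on histones and DNA. Methyltransferases (Kmt, Setd, Prmt) and acetyltransferases (Kat) add marks to histone tails, demethylases (Kdm) and deacetylases (Hdac, Sirt) remove them, bromodomain proteins (Brd) bind acetylated lysines, and Dnmt and Tet proteins methylate cytosine and oxidise the methyl group. In the testis these systems carry germ cells through meiosis and through the exchange of histones for protamines in spermatids, and mature sperm are held to be nearly silent in transcription, so that their mRNAs are largely remnants of earlier stages.

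Depth differed between the libraries. The expected counts, which estimate the fragments that came from each transcript, summed to between 366455 and 1058017 in control sperm, 1155491 and 1254477 in cadmium sperm, and 2606086 and 2866856 in testes, and known mRNAs took 9.14 to 13.6% of them. A gene listed at 0 could still hold 3 counts, which is 0.000819% of the shallowest library and 0.000105% of the deepest, for counting error only. All 7 spermatid markers were above 0 in at least 1 control testes sample, and 6 of 7 in at least 1 control sperm pool. Odf1 was at 0 in control sperm. Their summed level was 234 to 465 FPKM in control sperm (pools 2 to 4, here and for the other markers). It was 467 to 568 FPKM in control testes. Most of the sperm sum was Prm2, at 238.85, 233.29 and 438.21 FPKM in pools 2 to 4. Prm1 was at 5.24, 0 and 10.97 FPKM in these pools, against 121.65 and 127.74 in control testes. Tnp1, Tnp2, Akap4 and Odf1 were also lower in each of these pools than in both control testes samples, while Prm2 and Smcp overlapped. FPKM is the count divided by transcript length and library size. The 5 listed spermatocyte markers were all at 0 in control sperm, and 1 of them, Sycp3, gave up to 3.18 FPKM in cadmium sperm. Sertoli markers summed to at most 0.23 FPKM in control sperm, with 5 of 6 at 0, and leukocyte markers to at most 0.86 FPKM, with 4 of 6 at 0. In cadmium sperm the leukocyte markers summed to 1.70 to 5.30 FPKM with 5 of 6 above 0. Epithelial and epididymal markers summed to 4.17 to 13.0 FPKM in control sperm, with 5 of 8 at 0, and to 5.96 to 9.50 in control testes, and spermatogonial markers to 0.43 to 3.73 FPKM in control sperm, from Gfra1 alone with 5 of 6 at 0. Leydig markers reached 27.5 FPKM in 1 control sperm pool, with Cyp11a1, Hsd3b1 and Insl3 at 0.

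The 77 genes were near the edge of detection. Together they held 97, 303, 100 and 204 counts in control sperm pools 1 to 4, 446 and 334 in the cadmium sperm samples, 1144 and 1045 in the testes of control mice, and 1164 and 1074 in those of cadmium mice. In 48 of them no sample reached 10 counts. Control sperm pools 1 to 4 listed 16, 45, 10 and 25 of the 77 genes, the cadmium sperm samples 52 and 50, and the testes samples 61 to 65. That is 20.8, 58.4, 13.0 and 32.5% in the control pools, beside 12.6, 41.9, 9.65 and 20.6% of all genes of known mRNAs. In cadmium sperm it is 67.5 and 64.9% beside 48.7 and 47.0%, and in testes 79.2 to 84.4% beside 71.7 to 76.2%. After every library was thinned to about 366462 counts, the control testes samples listed 35.3 and 34.4 of the genes, the cadmium testes samples 32.5 and 34.8, the cadmium sperm samples 38.3 and 34.5, and control sperm pools 2 to 4 listed 32.6, 10 and 23.2. At equal depth the cadmium sperm and cadmium testes samples overlapped, and control sperm listed 21.9 ± 11.3 (SD, n = 3) against 34.9 ± 0.636 (SD, n = 2), without overlap (exact permutation test, two-sided p = 0.2, the smallest that 3 against 2 allows). In the controls, all genes of known mRNAs did likewise at equal depth. Pools 2 to 4 listed 4718, 1546 and 3172 of them, beside 6547 and 6124 in control testes. After cadmium these genes did not overlap, with 5490 and 5027 listed in sperm beside 6316 and 6144 in testes.

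**Figure D1:**
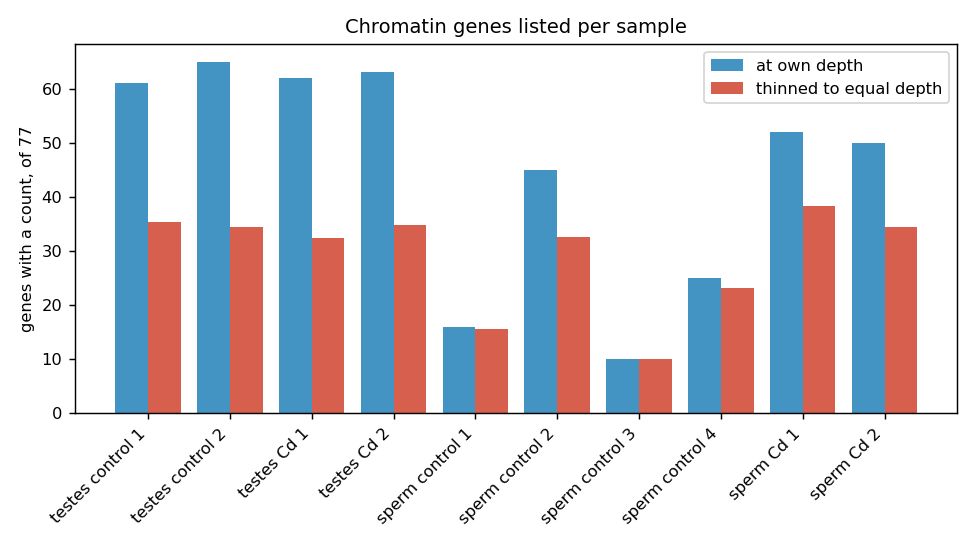
Number of the 77 chromatin genes (vertical axis) with a count above 0 in each of the 10 samples (horizontal axis), at the depth of each library and after thinning to equal depth (mean of 20 draws). The testes samples fall from between 61 and 65 to between 32.5 and 35.3, and control sperm pool 3, the shallowest library, stays at 10.

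Only Brd2, Kdm3b and Prmt6 were listed in all 10 samples, 44 genes were listed in all 4 testes samples, and 11 were listed in no sperm sample (Dnmt3b, Kat2a, Kdm4d, Prmt1, Prmt3, Prmt7, Setd8, Setdb2, Sirt6, Tet1 and Tet2). Prmt8 was listed in no testes sample. Its value was 0.79 FPKM in control sperm pool 2 alone.

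As a share of the FPKM of known mRNAs, the 77 genes held 0.222% ± 0.0362 (SD, n = 3) in control sperm and 0.203% ± 0.0134 (SD, n = 2) in control testes, a difference within the spread of the sperm pools (exact permutation test, two-sided p = 0.8). In cadmium sperm the share was 0.154% ± 0.000509 (SD, n = 2), below each control sperm pool used (p = 0.2 by the same exact test, the smallest it allows) and below the 0.208% ± 0.00593 (SD, n = 2) of cadmium testes (p = 0.333 by the exact test, again the smallest it allows). The gap between cadmium sperm and control sperm was narrower as a share of counts, 0.269% against 0.326%. As a share of the FPKM of all transcripts it was 0.0110% against 0.0123%, with overlapping samples (exact permutation test, two-sided p = 0.8).

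The families shared this FPKM differently in the 2 tissues. Bromodomain genes held 47.9% ± 2.92 (SD, n = 2) of it in control testes and 15.6% ± 10.6 (SD, n = 3) in control sperm, and 48.6% against 24.1% in the cadmium samples. Sirtuins held 10.5% ± 0.984 (SD, n = 2) in control testes and 22.3% ± 3.12 (SD, n = 3) in control sperm, and 10.9% against 21.0% in the cadmium samples. Different genes made up this share in different control sperm pools. The 20.6% of pool 3 was Sirt5 alone, on 8 counts. Sirt5 was at 0 in pools 2 and 4, which held Sirt1, Sirt2, Sirt3 and Sirt7. Arginine methyltransferases held 3.20% ± 0.270 (SD, n = 2) in control testes and 20.2% ± 16.3 (SD, n = 3) in control sperm, and 3.58% against 9.36% after cadmium. By mean, Prmt6 alone gave 16.9 of the 17.2 FPKM of this family in control sperm and 6.025 of 6.845 in cadmium sperm. In control testes it gave 1.435 of 3.02 FPKM. For these 3 families the sperm and testes samples did not overlap in either set of samples, which is as far as the exact test can go (p = 0.2 in the controls and 0.333 after cadmium). The same held for Kat genes, with 8.47% in control sperm and 4.09% in control testes, and 8.33% against 3.10% after cadmium. Control sperm pool 1, left out here, had 0.715% on Kat genes, below both control testes samples. In pool 4 Kat8 gave 10.72 of the 13.18 FPKM of Kat genes, on 8 counts. Setd genes did not overlap either and were lower in sperm, with 1.05% against 4.22% in the controls and 2.79% against 4.33% after cadmium. Lysine demethylases held 16.9% ± 1.42 (SD, n = 2) in control testes and 18.3% ± 3.91 (SD, n = 3) in control sperm, with overlapping samples. After cadmium they held 17.0 to 17.4% in testes and 19.2 to 20.0% in sperm, without overlap.

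**Figure D2:**
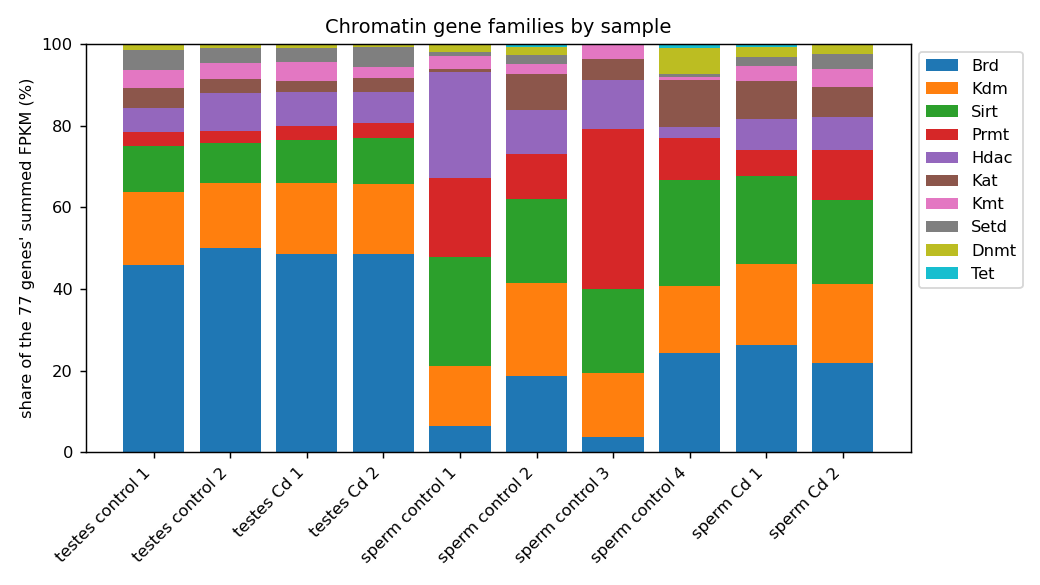
Share of the summed FPKM of the 77 genes (vertical axis, %) held by each of the 10 gene families in each sample (horizontal axis). Bromodomain genes take 45.9 to 50.0% in testes and 3.80 to 26.2% in sperm, and sirtuins take 9.83 to 11.4% in testes and 20.4 to 26.8% in sperm.

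Prmt6 and Sirt2, 2 members called higher in cadmium sperm than in cadmium testes, though under few alternatives, have RefSeq promoters whose 250 bases lie wholly outside the annotated gene, and these are shown as examples of the CpG-rich starts of this group, 5′ to 3′ on the strand of the gene (GRCm38.p6). Capitals mark each CG. The window of Prmt6 is chr3:110251000-110251249 on the minus strand and that of Sirt2 is chr7:28766502-28766751 on the plus strand.
Prmt6: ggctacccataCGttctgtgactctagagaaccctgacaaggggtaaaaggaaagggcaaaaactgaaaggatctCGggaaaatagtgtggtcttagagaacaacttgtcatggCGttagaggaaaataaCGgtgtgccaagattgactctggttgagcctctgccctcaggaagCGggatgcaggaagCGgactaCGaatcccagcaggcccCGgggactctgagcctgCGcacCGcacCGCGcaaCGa
Sirt2: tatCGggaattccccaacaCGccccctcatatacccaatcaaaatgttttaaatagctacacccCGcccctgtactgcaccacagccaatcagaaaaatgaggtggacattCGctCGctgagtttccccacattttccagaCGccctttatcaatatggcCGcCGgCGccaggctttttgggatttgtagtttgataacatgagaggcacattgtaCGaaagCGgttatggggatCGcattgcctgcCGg
Each window holds 13 CG dinucleotides. Over the 61 members with a promoter in the RefSeq table the median was 17, beside 6 over 27025 genes (first listed start of each). The letters TATAAA, searched on both strands, were in 1 of the 61 windows (1.64%, beside 13.0% of all), and TGACGT, the core of the cyclic AMP response element, was in 4 of 61 (6.56%, beside 6.56% of all). Neither was in the windows of Prmt6 and Sirt2. A match of letters is a description and no site was tested.

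Control sperm was compared with control testes to ask which of these mRNAs differ between mature sperm and the tissue that makes them. With edgeR, and a call at an adjusted p (Benjamini-Hochberg) under 0.05 and more than 2-fold, 44 of the 77 genes could be tested (at least 10 counts in total over the 5 samples). Of these, 2 differed, Kat6b, higher in sperm, and Brd8, lower in sperm. That is 4.55% of the members tested, beside 7.07% of all genes tested and 5.27% of the genes of known mRNAs, with 3.22% of all genes higher in sperm and 3.85% lower. At an unadjusted p under 0.05 there were 14 of the 44 members, beside 8962 of 26310 genes of all kinds and 2462 of 6828 genes of known mRNAs. The median log2 fold change was -0.22 over the members and -1.08 over all genes. With the scaling it ran from -0.22 to -0.96 over the members and from -1.08 to -1.74 over all genes. By FPKM alone, 3 of 77 members were higher in every sperm pool than in both testes samples (background 3.26% of the genes of known mRNAs) and 24 were lower (background 40.8%). In bulk RNA, fewer cells of a type and less RNA per cell cannot be told apart.

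The same contrast in the cadmium samples, which share no library with the controls, tested 42 members. Of these 10 differed, 7 higher in sperm and 3 lower, beside 27.7% of all genes tested (13.9% higher and 13.8% lower) and 28.8% of the genes of known mRNAs. Those higher in sperm included Kat6b, Kdm2a, Dnmt3a, Sirt2, Kdm3b and Prmt6, and lower were Brd8, Brdt and Kmt2a. By FPKM, 19 of 72 members were higher in both cadmium sperm samples than in both testes samples (background 16.6%) and 22 were lower (background 34.4%). The 2 contrasts gave the same sign for 31 of the 38 members tested in both, which is 81.6%, beside 82.3% of 6165 genes of known mRNAs. Kat6b and Brd8 passed in both. Of the 9 genes that passed in the cadmium contrast and could be tested in the control contrast, 9 had the same sign there and 4 had an unadjusted p under 0.05. For all genes of known mRNAs that passed in the cadmium contrast the sign was the same for 97.5%.

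**Figure D3:**
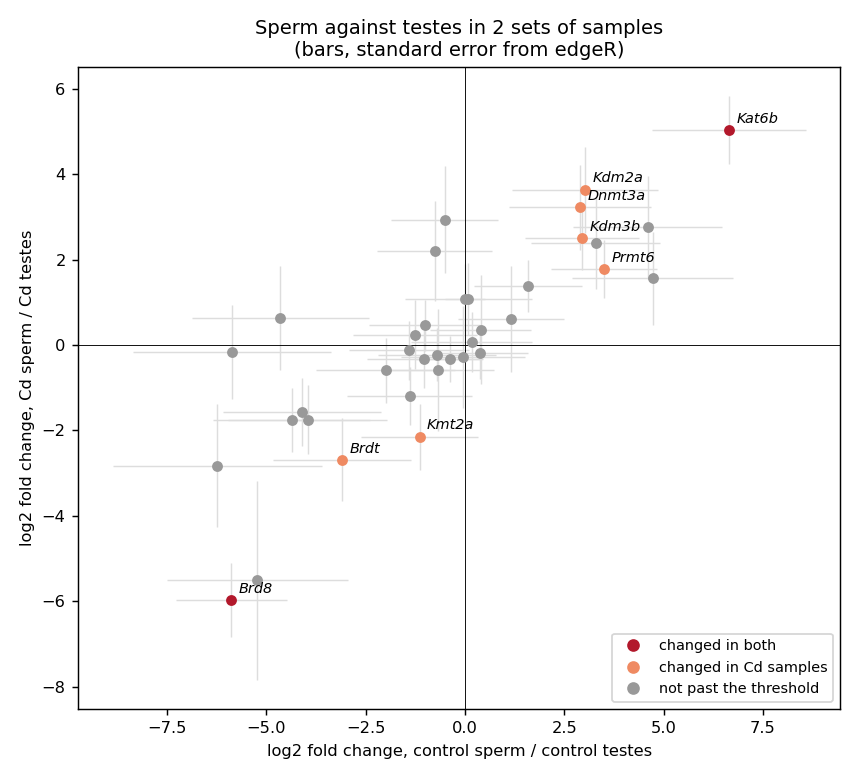
Log2 fold change of sperm over testes in the control samples (horizontal axis) and in the cadmium samples (vertical axis) for 37 of the 38 genes tested in both, with standard errors worked back from the edgeR statistic. Kat6b (6.65 and 5.03) and Brd8 (-5.88 and -5.97) are the 2 genes that passed in both.

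Among the bromodomain readers, Brd8, a subunit of the Tip60 acetyltransferase complex, separated the tissues most clearly. Its level was 12.6 and 17.2 FPKM in control testes, 12.8 and 16.1 in cadmium testes, 0, 0.44, 0 and 0 in control sperm pools 1 to 4, and 0 and 0.35 in the cadmium sperm samples. Every sperm sample was below every testes sample. The log2 fold change of sperm over testes was -5.88 (SE 1.39, edgeR adjusted p = 0.00104) in the controls and -5.97 (SE 0.87, edgeR adjusted p = 2.24e-07) after cadmium. The sperm sums rest on 2 counts each, so the plain ratio of CPM was 64.1-fold (95% counting interval 17.6 to 531) in the controls and 77.9-fold (21.4 to 646) after cadmium. Without control testes sample 2 the adjusted p of the control contrast was 0.229.

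Brdt, the testis-specific reader of acetylated histone H4 that spermatids need to compact their chromatin, was at 2.49 and 3.79 FPKM in control testes, with 2.25 and 2.21 in the cadmium testes samples. In sperm it was at 0, 0.60, 0 and 0 in the control pools and at 0.37 and 0.17 in the cadmium samples, again with no overlap. It passed in the cadmium contrast (log2 fold change -2.69, SE 0.97, edgeR adjusted p = 0.0318) and not in the controls (-3.09, SE 1.73, adjusted p = 0.198). The cadmium call was lost under 7 of 14 alternatives, with an edgeR adjusted p of 0.0609 to 0.276 without any 1 of the 4 libraries. Brd9, a subunit of a SWI/SNF remodeller, was at 5.15 to 6.81 FPKM in testes and 0 to 1.99 in sperm, with adjusted p of 0.116 in the controls and 0.0723 after cadmium.

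Brd2, which binds acetylated histones at active genes, was the highest member in testes by mean, with 19.3 and 16.9 FPKM in control and 19.4 and 19.3 in cadmium samples. Control sperm pools 1 to 4 had 3.70, 9.10, 3.06 and 24.6 FPKM and the cadmium sperm samples 16.8 and 9.76, so the tissues overlapped in the controls, while after cadmium both sperm samples lay below both testes samples. The log2 fold changes of -0.38 (SE 0.85) and -0.34 (SE 0.54) did not pass.

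Among the acetyltransferases, Kat6b, the catalytic subunit of a histone H3 acetyltransferase complex, was the clearest gene on the sperm side. It was at 0, 2.89, 4.18 and 2.46 FPKM in control sperm pools 1 to 4 and at 5.66 and 1.66 in cadmium sperm, against 0.05 and 0 in control testes, with 0.19 and 0.05 in the cadmium testes samples. Every sperm sample but pool 1, at 0, was above every testes sample. The log2 fold change was 6.65 (SE 1.93, edgeR adjusted p = 0.0136) in the controls and 5.03 (SE 0.80, edgeR adjusted p = 1.52e-06) after cadmium. The sums behind these values were 42 counts against 1 and 63 against 5. With all 4 control pools the adjusted p was 0.0487, and with the replicate block added to them it was 0.735 (log2 fold change 4.58), while with pools 2 to 4 it was 0.0503 without control sperm pool 2, and without control testes sample 1 or 2 it was 0.329 or 0.342. With TMM over known mRNAs it was 0.0775, and the only call of the control contrast was then Brd8, lower in sperm. The 48 counts of cadmium sperm sample 1 were all assigned to another listed isoform than those of the other sperm samples, so isoforms were summed by gene.

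Kat5, the Tip60 acetyltransferase, was the highest Kat gene in control testes by mean (1.54 and 1.19 FPKM), and it was at 2.82 FPKM in control sperm pool 2 and 0 in the other control pools. Kat8, which acetylates histone H4, was the highest in control sperm by mean, and that mean came from 10.7 FPKM in pool 4 with 0 in the other pools. Neither passed in a comparison in which it was tested.

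The deacetylases showed few counts. In the Hdac family Hdac10, known as a polyamine deacetylase, was highest by mean in control testes (2.49 and 5.17 FPKM). It was at 0, 0.40, 0 and 0 in the control sperm pools and at 1.09 and 1.33 in cadmium sperm, below both sets of testes samples, with adjusted p of 0.143 in the controls and 0.0962 after cadmium. Hdac8 was highest in control sperm by mean, with 6.55, 1.42, 9.69 and 0 FPKM in pools 1 to 4 and 0.16 and 0 in control testes, and it did not pass (log2 fold change 4.60, SE 1.87, edgeR adjusted p = 0.106). Hdac1, a core subunit of the Sin3 and NuRD corepressors, had at most 1.18 counts in any sample.

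Of the sirtuins, which are NAD-dependent deacylases, Sirt3 of the mitochondrion was highest by mean in control testes. It was at 5.46 and 6.05 FPKM in control testes, with 6.08 and 6.49 in the cadmium testes samples. Control sperm pools 1 to 4 had 11.6, 5.27, 0 and 10.98 FPKM and cadmium sperm 4.22 and 6.93, with overlap. Sirt1, a nuclear deacetylase that spermatogenesis requires, was at 7.51, 7.01, 0 and 8.34 FPKM in the control pools and 7.79 and 3.59 in cadmium sperm, beside 2.24 and 1.94 in control and 2.99 and 2.16 in cadmium testes. Every sperm sample but pool 3 was above the testes samples, and the log2 fold changes were 1.59 (SE 1.35, adjusted p = 0.436) and 1.38 (SE 0.61, adjusted p = 0.0813). Sirt2, a mostly cytoplasmic tubulin deacetylase, was at 4.74 and 1.31 FPKM in cadmium sperm and at 0 and 0.69 in cadmium testes, and was higher in sperm (log2 fold change 3.22, SE 1.21, edgeR adjusted p = 0.0394). The ratio of CPM was 9.22-fold (95% counting interval 2.49 to 50.9) over 3 testes counts, and the call was lost under 11 of 13 alternatives. Sirt5, a mitochondrial desuccinylase, had the highest mean over control sperm pools 2 to 4 through 16.6 FPKM in pool 3, with 0 in the other pools.

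In the lysine demethylases the highest gene of both control tissues by mean was Kdm1a, the flavin-dependent enzyme that removes methyl groups from histone H3. It was at 7.25 and 5.80 FPKM in control testes, 6.49 and 6.32 in cadmium testes, 7.11, 9.47, 0 and 11.2 in control sperm pools 1 to 4, and 5.20 and 4.26 in cadmium sperm. Sperm and testes overlapped in the controls, and the log2 fold changes were 0.39 (SE 1.19) and -0.19 (SE 0.60).

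Kdm3b, a Jumonji demethylase, was at 0.33, 1.46, 9.24 and 1.94 FPKM in the control pools and 3.04 and 1.01 in cadmium sperm, beside 0.79 and 0.32 in control and 0.45 and 0.37 in cadmium testes. Pools 2 to 4 and both cadmium sperm samples were above the testes samples of their comparison. It was higher in cadmium sperm than in cadmium testes (log2 fold change 2.51, SE 0.75, edgeR adjusted p = 0.00802), and in the controls the value was 2.95 (SE 1.43, adjusted p = 0.131). The cadmium call was lost under 6 of 14 alternatives, with an edgeR adjusted p of 0.178 without cadmium sperm sample 1 and 0.0559 without cadmium testes sample 1. Kdm2a, a CpG island-binding demethylase, was at 1.31 and 0.99 FPKM in cadmium sperm and 0.05 and 0.15 in cadmium testes (log2 fold change 3.63, SE 1.00, edgeR adjusted p = 0.00419), and its log2 fold change was 3.02 (SE 1.83, adjusted p = 0.245) in the controls. Its cadmium call was lost under 6 of 13 alternatives, with an edgeR adjusted p of 0.0659 and 0.0723 without cadmium sperm sample 1 or 2 and 0.0835 without cadmium testes sample 1.

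Kdm4d, a testis-enriched histone H3 demethylase, was at 1.07 to 1.19 FPKM in the 4 testes samples, on 8 or 9 counts each, and at 0 in all 6 sperm samples. Against a floor of 3 counts over the sperm group it was at least 2.0-fold lower in control sperm and at least 2.31-fold lower in cadmium sperm, and it did not pass in either contrast (adjusted p = 0.106 and 0.0683).

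Among the methyltransferases, Kmt2a, the MLL1 enzyme that methylates histone H3 at active promoters, was at 0.80 and 0.95 FPKM in control testes, with 1.00 and 0.90 in the cadmium testes samples. It was at 0, 0.23, 0 and 0.83 in the control pools and 0.16 and 0.19 in cadmium sperm. Only pool 4 lay inside the range of the testes. It was lower in cadmium sperm than in cadmium testes (log2 fold change -2.15, SE 0.77, edgeR adjusted p = 0.0301), and the control contrast gave -1.14 (SE 1.48, adjusted p = 0.627). The cadmium call was lost under 8 of 13 alternatives, with an edgeR adjusted p of 0.0736 to 0.175 without any 1 of the 4 libraries. Kmt2e was the highest Kmt gene of both control tissues by mean, with 2.17 and 2.80 FPKM in control testes and 2.28, 1.17, 2.26 and 0 in control sperm pools 1 to 4. Setd2, which trimethylates histone H3 in transcribed gene bodies, led its family by mean in control testes (1.29 and 1.29 FPKM) and was at 0 to 0.56 in control sperm and 0.41 and 0.38 in cadmium sperm, below all testes samples but without passing (adjusted p = 0.132 and 0.129). Setd1b led by mean in control sperm, at 0.11 and 0.67 FPKM in pools 2 and 4 and 0 in pools 1 and 3.

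Prmt6, which methylates arginine of histone H3 asymmetrically, was the highest of all members in control sperm by mean. It was at 8.70, 7.33, 31.4 and 12.1 FPKM in control sperm pools 1 to 4 and 4.24 and 7.81 in cadmium sperm, beside 1.29 and 1.58 in control testes, with 2.02 and 2.27 in the cadmium testes samples. All 6 sperm samples were above all 4 testes samples. The counts were small in each library, from 9 to 28 in sperm and 9 to 15 in testes. In the controls the log2 fold change was 3.51 (SE 1.34, edgeR adjusted p = 0.0919), which did not pass, though it did with DESeq2 (adjusted p = 0.0155) and in 1 edgeR model of the 4 groups (adjusted p = 0.0222), and after cadmium it was 1.77 (SE 0.68, edgeR adjusted p = 0.0443), which passed. The cadmium call was lost under 13 of 14 alternatives. Prmt1, the main enzyme of this family in most cells, was at 0.38 to 1.38 FPKM in testes, on 1 to 5 counts each, and at 0 in all sperm samples. Against a floor of 3 counts over the sperm group its ratio of testes to sperm was 0.824 in the controls and 0.578 after cadmium. A lower level in sperm was thus not shown.

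In the DNA methylation group, Dnmt3a, which sets methylation de novo, was at 1.06 and 0.49 FPKM in cadmium sperm and at 0.11 and 0.08 in cadmium testes, higher in sperm (log2 fold change 3.23, SE 0.99, edgeR adjusted p = 0.0104). This call was lost under 8 of 13 alternatives, with an edgeR adjusted p of 0.0506 to 0.12 without any 1 of the 4 libraries. In control sperm pools 1 to 4 it was at 1.46, 1.36, 0 and 0.20 FPKM, beside 0.11 and 0.08 in control testes, with pool 3 below them. Dnmt3l, its cofactor without catalytic activity, was the highest Dnmt gene of both control tissues by mean, with 7.25 FPKM in pool 4, 0 in the other pools, and 0.86 and 0 in testes. Tet3 was by mean the highest Tet gene in control sperm (0.60 and 1.08 FPKM in pools 2 and 4 and 0 in pools 1 and 3) and Tet1 in control testes (0.04 and 0.08 FPKM). No Tet gene passed.

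**Figure D4:**
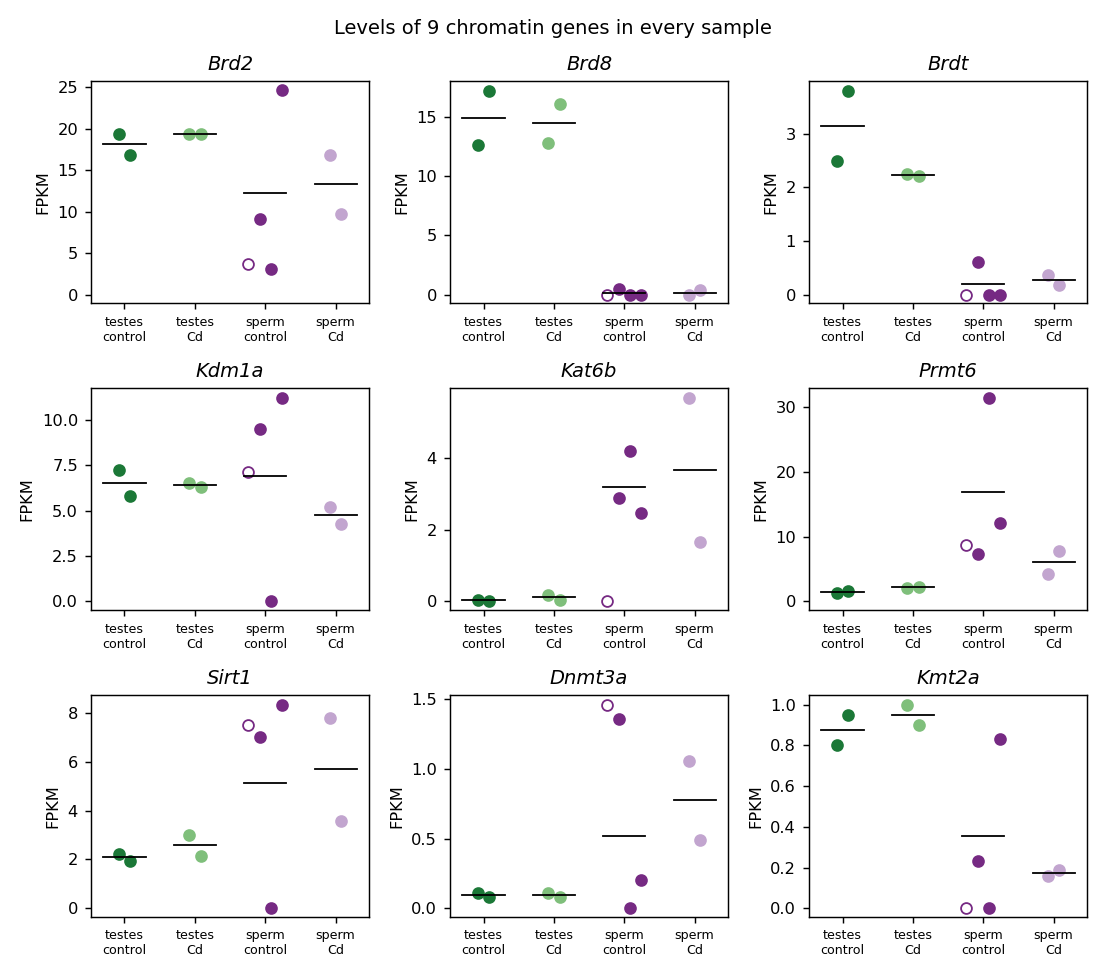
FPKM (vertical axis) of 9 of the genes in each sample of the 4 groups (horizontal axis). Filled points are samples in the comparisons, the open point is control sperm pool 1, and the line is the mean of the filled points. Brd8 and Brdt are above 2 FPKM in testes and below 1 in sperm, and all 6 sperm samples of Prmt6 lie above its testes samples.

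Beside the 10 calls of the cadmium contrast, leukocyte markers summed to 1.70 to 5.30 FPKM in cadmium sperm and 3.72 to 3.84 in cadmium testes, and epithelial and epididymal markers to 9.98 to 10.3 and 6.54 to 13.7. Their part in the calls was not tested. With 1 of the 4 libraries left out, 2 members passed without cadmium sperm sample 1, 3 without sample 2, 2 without cadmium testes sample 1 and 5 without sample 2. Brd8 and Kat6b passed each time.

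Cadmium was compared with control in testes to ask whether these enzymes differed 35 days after the injection. Of the 42 members tested, edgeR called 0, with 0 at an unadjusted p under 0.05, and DESeq2 and limma also called 0. Over all 30609 genes tested edgeR called 0% as well, with 385 at an unadjusted p under 0.05. The log2 fold changes ran from -1.54 (SE 1.10) for Kat2b, an acetyltransferase of the SAGA complex, to 1.31 (SE 1.08) for Tet1, with a median of 0.06 over the members and 0.01 over all genes. Among the most abundant members the values were 0.18 (SE 0.45) for Brd2, 0.02 (SE 0.50) for Brd8, 0.06 (SE 0.47) for Kdm1a and 0.23 (SE 0.54) for Sirt3. The median SE was 0.68, so a change of 2-fold in a typical member was within 1.5 standard errors. By FPKM, 7 of 76 members were higher in both cadmium testes samples than in both controls (background 9.33%) and 9 were lower (background 11.2%). Same-numbered testes samples deviated together (r = 0.605). With a block for the replicate number edgeR called 154 of the 30609 genes and 0 members.

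In sperm, 31 members could be tested against control pools 2 to 4, and edgeR called 0, with 0 at an unadjusted p under 0.05. DESeq2 and limma also called 0, and edgeR called 0.117% of all 17079 genes tested, with 760 at an unadjusted p under 0.05. The median log2 fold change was 0.29 over the members and 0.40 over all genes, and 20 of the 31 were above 0. The values ran from -1.86 (SE 2.08) for Kat8 to 2.64 (SE 1.89) for Brd9. Prmt6 was at 4.24 and 7.81 FPKM in cadmium sperm and at 7.33 to 31.4 in control pools 2 to 4, with overlap (log2 fold change -1.27, SE 1.07). By FPKM, 10 of 66 members were higher in both cadmium samples than in control pools 2 to 4 (background 17.4%) and 0 were lower (background 0.734%). The cadmium libraries were the deeper ones. The median SE was 1.90, so a change of 4-fold in a typical member lay close to its standard error. The parts of depth and of the spread between pools in this SE were not tested.

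The difference between the cadmium effect in sperm and that in testes was tested in 1 model of 9 samples. Of 56 members edgeR called 0, beside 0.00859% of all genes, and DESeq2 and limma called 0. At an unadjusted p under 0.05 there were 1315 of 34939 genes and 1 member, Sirt7, a nucleolar deacetylase, with a log2 difference of -7.52 (SE 2.99, edgeR unadjusted p = 0.0147). It rests on 8 counts in control sperm, 0 in cadmium sperm, 1 in control testes and 4 in cadmium testes. Dnmt1, the maintenance methyltransferase, and Kat2b were each higher in both cadmium sperm samples than in control pools 2 to 4 and lower in both cadmium testes samples than in both controls, and their differences of 5.05 (SE 2.76) and 3.42 (SE 1.99) did not pass. Dnmt1 was at 0 in the control pools, 0.16 and 0.61 FPKM in cadmium sperm, 0.33 and 0.44 in control testes, with 0.30 and 0.28 in the cadmium testes samples. It rests on 1 and 4 counts in sperm after cadmium. Its testes counts were 5 and 6 without cadmium and 5 and 4 with it. Dnmt1 and Kat2b were picked for these opposite directions. Among genes of known mRNAs, 17.4% were likewise higher in sperm after cadmium and 11.2% lower in testes. The share doing both was not counted.

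**Figure D5:**
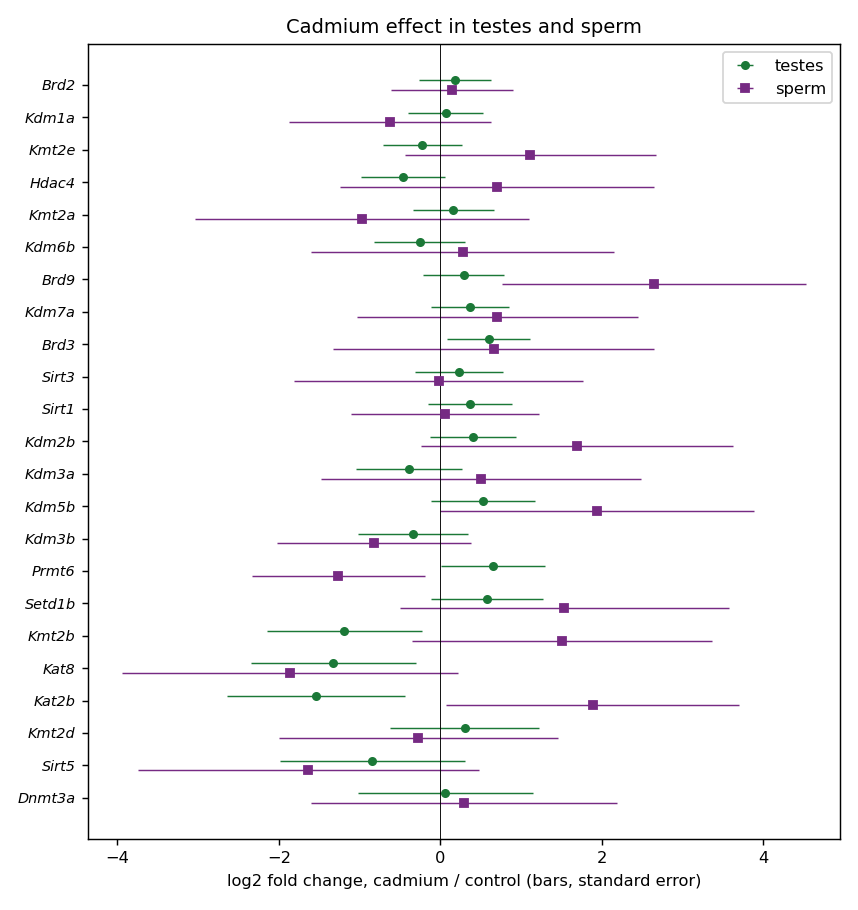
Log2 fold change of cadmium over control (horizontal axis) with its standard error for the 23 genes tested in both testes (circles) and sperm (squares), ordered by level in control testes (vertical axis). The sperm bars are wider than the testes bars, and 0 of these genes passed in either tissue.

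Of 67 further chromatin genes with other symbols (Polycomb, ING, SMYD and SWI/SNF proteins among them), 64 were in the tables. In the control tissue contrast 46 were tested and 3 differed, which is 6.52%, beside 7.07% of all genes tested. Ing2 (log2 fold change 5.45, SE 1.19, edgeR adjusted p = 0.000271) and Ing4 (3.08, SE 0.75), readers of methylated histone H3, were higher in sperm, and Zmynd11 (-4.98, SE 1.08), a reader of methylated histone variant H3.3, was lower. In the cadmium samples 44 were tested and 12 differed, 6 in each direction, which is 27.3%, beside 27.7% of all genes tested. The 3 genes of the control contrast were among the 12 with the same signs (6.03, 3.47 and -4.48). Also higher in cadmium sperm were Ing5, Pbrm1, Ing1 and Whsc1l1, and lower were Ash2l, Trim33, Smyd2, Rbbp4 and Eed. For cadmium against control 0 of 51 in testes and 0 of 31 in sperm passed with edgeR, with 1 and 0 at an unadjusted p under 0.05.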

How the data were processed

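Per-transcript tables of 10 samples were used, grouped by the sample labels. The authors deposited 1 expected count per listed transcript, an estimate without normalization, of which 29.3 to 40.3% in a sample were not whole. The deposited FPKM were scaled by the authors to length and sequencing depth. The paper's methods name SOAP2 for alignment, while the submitters' processing notes name HISAT and mm10. The counting tool and its use of strand were not given in the sources used here, so reads of overlapping or near-identical genes may be misassigned.

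Expected counts and FPKM were summed by gene over known-mRNA transcripts, 25 members having more than 1, and counts were rounded. Unlisted transcripts were set to 0. Genes with at least 10 counts over a comparison entered quasi-likelihood tests in edgeR 4.0.16 (R 4.3.3, TMM over all genes), with Benjamini-Hochberg adjustment over all genes tested. The SE of a log2 fold change was derived from that change and the root of its F statistic, and does not describe a spread between samples. DESeq2 1.42.0 and limma 3.58.1 on log2(FPKM + 1) or log2(FPKM + 0.1) were alternatives. Per-sample values were compared with exact permutation tests (scipy 1.17.1). The tests were checked on simulated counts. The chi-square per degree of freedom between replicates was at least 9.56, so no samples were merged. By the paper's methods the control sperm pools came from separate groups of mice and the control testes from those same animals, so these tissues share animals, and the origin of the cadmium samples is not given in the sources used here. P-values measure the spread between samples, part of which may be technical.

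The values of 1 gene are not reported here. The members and lists were chosen with earlier results of these data known. Full statistics were given for members that passed, up to the 10 largest changes each way, and levels for the highest member of each family in control testes and control sperm. Of the 77 members 56 were tested in at least 1 comparison and 75 matched the RefSeq gene table by symbol, and 61 had a RefSeq promoter.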

Additional observations from a re-analysis of the deposited data

Results flagged for a closer look

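Over the 4 control sperm pools, 9 of 24 members tested for an outlying pool had 1 by Dixon's test, which chance passes in about 1 of 20 groups of continuous values. Pool 2 stood above the others for Brd8 (0.44 FPKM), Brdt (0.60), Hdac10 (0.40) and Kat5 (2.82). Pool 4 did so for Dnmt3l (7.25 FPKM), Kat8 (10.7), Kdm2a (2.71) and Setd1b (0.67), and pool 3 for Sirt5 (16.6). In 7 of the 9, all but Kdm2a and Setd1b, the other 3 pools were at 0, so that detection in a single pool passes the test by itself and the chance rate does not apply. Kdm2a was also at 0.39 FPKM and Setd1b at 0.11 in pool 2.

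Control sperm pool 1, left out of the main comparisons, was above every other control sample for 5 members. These were Dnmt3a (1.46 FPKM, beside at most 1.36 elsewhere), Hdac3 (11.99, beside 2.87), Kdm7a (2.96, beside 1.72), Prmt10 (5.15, beside 0.38) and Sirt3 (11.6, beside 10.98), on 6, 10, 12, 6 and 7 counts.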

How the results depend on the processing

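The 2 members that differed between control sperm and control testes became 1 with TMM over known-mRNA genes, with no filter and with the replicate block over all 4 pools, 5 with all 4 pools, 7 and 9 with limma on log2(FPKM + 1) and log2(FPKM + 0.1), and 11 in 1 model of the 4 groups. Leaving out 1 replicate gave 0 to 3. The 10 of the cadmium contrast became 3 with DESeq2, 3 and 2 with the 2 limma fits, 3 in 1 model of the 4 groups, 8 with the replicate block and 2 to 5 without 1 replicate. The cause was not tested. Calls over all genes moved too. In the control contrast they were 1860 of 26310 in the main fit and 815 with TMM over known-mRNA genes. They were 6028 and 6177 with the 2 limma fits and 6133 in the model of the 4 groups. In the cadmium contrast they were 7496 of 27081 in the main fit and 4410 with DESeq2. They were 6464 and 5742 with the 2 limma fits and 3733 in the model of the 4 groups. The 3 cadmium comparisons gave 0 members under every alternative, the replicate block included, though over all genes the block gave 154 calls in testes and 113 for the difference between tissues. Same-numbered samples deviated together in testes (r = 0.605) and hardly elsewhere (-0.0435 to 0.119). The numbers were not taken as pairs in the main fits, so the main fit in testes leaves this shared deviation out.

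Shares are compared as log2 ratios. That of the members moved from 0.12 to -0.13 for control sperm over testes, from -0.52 to -0.17 for cadmium over control sperm and from -0.43 to -0.29 for cadmium sperm over testes when taken over all transcripts, and to -0.28 for cadmium over control sperm when taken over counts. The log2 ratio of members listed in cadmium sperm over testes moved from -0.29 to -0.37 at 3 counts and to 0.11 at equal depth. Of the calls by gene, Brd8 passed under 14 of 14 alternatives in the cadmium contrast and 15 of 16 in the controls, Kat6b under 12 of 14 and 10 of 16, and in the cadmium contrast Kdm3b under 8 of 14, Kdm2a 7 of 13, Brdt 7 of 14, Kmt2a and Dnmt3a 5 of 13, Sirt2 2 of 13 and Prmt6 1 of 14. No direction reversed for these genes, and the other named genes were not checked in this way. Low counts limit all of this, with 48 of 77 members under 10 counts in each sample.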
